A study of Mus musculus with 32 samples.

Results

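The Ly6 genes Ly6a, Ly6c1, Ly6c2, Ly6e and Ly6h are 5 of the 38738 gene symbols in an expression table of the mouse subventricular zone, the wall of the forebrain ventricle in which neurons are still born after birth. They were picked by symbol, with measured values of the same libraries in view, so their levels are given as a description. The series held 4 libraries made from pools of 10 cells and 28 libraries made from 1 cell each, all taken at postnatal day 21 from animals for which the labels give no strain, sex, treatment or cell sort. No label ties a library to an animal, so the 28 cells count as a single sample and no test was run. Values are FPKM, fragments counted on a transcript, scaled to its length and to the library's mapped fragments, and a gene is said to be found in a library at FPKM of at least 1.

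Ly6 proteins are small, cysteine-rich proteins that share the Ly6/uPAR fold and are held on the outer cell surface by a GPI lipid anchor. Ly6a (Sca-1) is a marker of mouse blood stem cells and is also made by brain vessels. Ly6c1 and Ly6c2 encode the Ly-6C antigens of mouse monocytes, and Ly6c1 is also a marker of brain endothelium. Ly6e (Sca-2) is a broadly made, interferon-induced member, and Ly6h is made mainly in brain, where it binds nicotinic acetylcholine receptors.

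All 5 members lie on chromosome 15 (GRCm38, GENCODE M21) and are protein-coding. Ly6e spans 74955051 to 74959905 on the plus strand. The others are on the minus strand, with Ly6a at 74994877 to 74998031, Ly6c1 at 75044018 to 75048830, Ly6c2 at 75108158 to 75111970 and Ly6h at 75551268 to 75567255. Ly6i, a further gene of the cluster, lies between Ly6e and Ly6a at 74979534 to 74983430 on the minus strand.

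Some members are near copies of each other, which bears on how reads can be assigned. The first 120 coding bases of Ly6c1, Ly6c2, Ly6a and Ly6i follow, with capitals at each base that differs from Ly6c1.
Ly6c1: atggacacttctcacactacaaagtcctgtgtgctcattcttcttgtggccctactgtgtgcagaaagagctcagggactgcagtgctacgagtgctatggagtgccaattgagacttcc
Ly6c2: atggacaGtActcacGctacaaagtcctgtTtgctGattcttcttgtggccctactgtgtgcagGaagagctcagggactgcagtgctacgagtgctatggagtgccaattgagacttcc
Ly6a: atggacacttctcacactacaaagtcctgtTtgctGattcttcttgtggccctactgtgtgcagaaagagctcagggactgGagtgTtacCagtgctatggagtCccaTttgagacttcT
Ly6i: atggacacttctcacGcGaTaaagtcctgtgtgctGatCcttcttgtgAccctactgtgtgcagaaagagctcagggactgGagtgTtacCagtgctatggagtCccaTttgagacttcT

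Over the whole coding sequence Ly6c1 and Ly6c2 were 97.7% identical (384 of 393 bases). Ly6a was 81.8% identical to Ly6c1 and 86.3% to Ly6i, while Ly6e and Ly6h were 50.1% to 53.8% identical to any other member. Of the 50-base words in their protein-coding transcripts, 32.8% of those of Ly6c1, 31.2% of Ly6c2, 18.97% of Ly6a and 4.76% of Ly6i also occurred in a transcript of another gene. For Ly6e this share was 0% and for Ly6h 0.248%. How the authors' counting placed such reads is not given in the sources used here, so the split between Ly6c1 and Ly6c2, and in part that between Ly6c1 and Ly6a, is uncertain.

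RefSeq promoter sequences (GRCm38.p6) were at hand for 2 of the 5 members, Ly6c1 and Ly6c2, the pair with the most alike coding sequence. The windows run from 250 bases before to 50 bases after a transcription start, at chr15:75048788-75049087 and chr15:75111922-75112221, both on the minus strand, and capitals mark the longest run that both windows share, of 20 bases.
Ly6c1 promoter: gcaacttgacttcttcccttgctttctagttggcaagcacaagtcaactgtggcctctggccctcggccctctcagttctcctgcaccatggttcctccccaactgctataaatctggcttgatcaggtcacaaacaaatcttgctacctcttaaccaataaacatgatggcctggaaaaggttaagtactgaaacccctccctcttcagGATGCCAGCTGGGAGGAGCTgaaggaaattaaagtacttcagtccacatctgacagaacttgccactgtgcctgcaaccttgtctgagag
Ly6c2 promoter: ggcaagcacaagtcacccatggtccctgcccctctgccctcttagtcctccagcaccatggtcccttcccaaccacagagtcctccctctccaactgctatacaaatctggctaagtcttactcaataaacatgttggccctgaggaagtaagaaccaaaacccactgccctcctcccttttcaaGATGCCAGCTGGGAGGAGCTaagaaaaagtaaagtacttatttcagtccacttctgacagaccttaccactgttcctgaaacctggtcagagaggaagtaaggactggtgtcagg

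In a global alignment of the windows 208 of 266 paired bases were identical, which is 62.3% of all 334 positions with gaps counted. Each gene has a second RefSeq start, and the other 3 pairs of windows were 38.2% to 50.5% identical on that count. Of paired bases, 186 of 232, 159 of 251 and 160 of 181 were identical in them. The windows are offset, with the shared run of the printed pair beginning at base -40 in Ly6c1 and -65 in Ly6c2. Percentages with gaps counted therefore also reflect that offset. The letters TTCNNNGAA (gamma-activated site), an interferon-stimulated response element and CCGGAAGT (ETS site), searched on both strands, were in none of the 4 windows. They occur in 8.30%, 3.44% and 3.89% of all 32851 RefSeq promoter windows of that length.

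Cells were described by 14 marker lists that hold no Ly6 gene, and each cell was assigned to the list with the highest mean log2(FPKM + 1). Endothelial markers led 8 cells (cells 1, 2, 3, 6, 7, 8, 16 and 17), each with 9 to 12 of 12 markers. Oligodendrocyte markers led cells 4, 12 and 13, ependymal markers cells 9, 10 and 15, choroid plexus markers cell 5, astrocyte markers cells 11 and 14, microglial markers cells 18 to 21 and neuroblast markers cells 22 to 28. Pools 2 and 3 were led by endothelial and pools 1 and 4 by oligodendrocyte markers. Cells 18 to 22 and cells 23 to 28 were handled as library sets, chosen with earlier results of these data known. No label gives these sets. An abundant gene of 1 cell may recur at a low level in the others of its set, which was not tested. Values there are therefore also given with those under 2% of the set's highest value put at 0. With that limit cell 21 was led by neuroblast markers. Pools had 10477 to 12869 genes found and single cells 2107 to 10169. In 21 of 32 libraries the low values moved in steps of 1 fragment, from which the depth came to roughly 6.17e+06 to 3.89e+07 fragments. At that depth 1 FPKM of the 844-base transcript Ly6c1-201 is about 3.98 to 25.1 fragments.

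**Figure D1:**
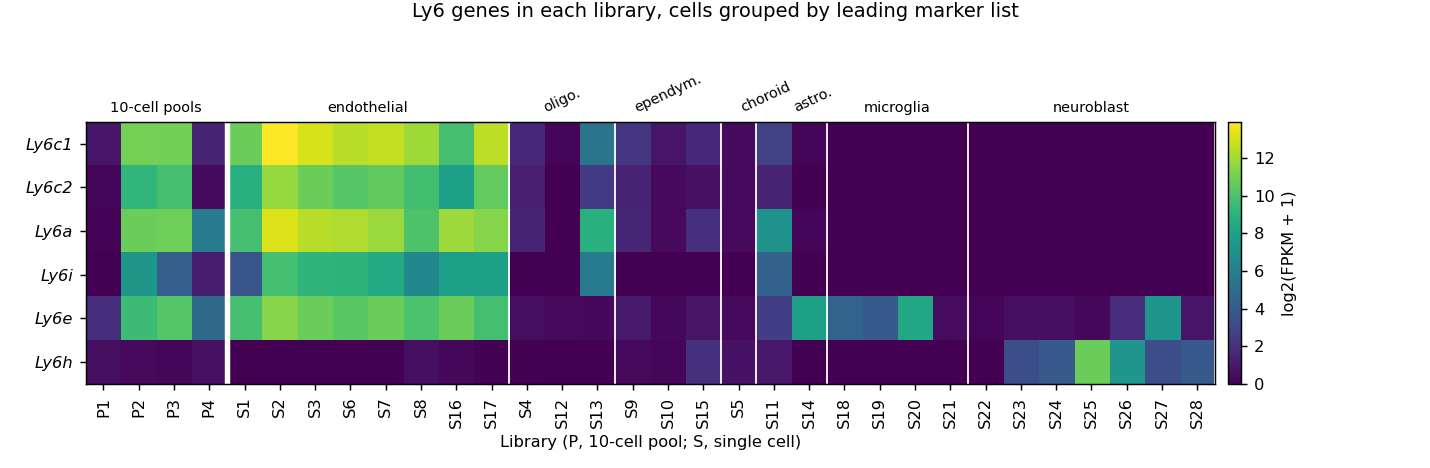
Level of 6 Ly6 genes (rows) in each library (columns) as log2(FPKM + 1), with the 4 pools of 10 cells at the left and the 28 single cells to their right, grouped by the marker list that led each cell. The 8 cells led by endothelial markers and pools 2 and 3 have high levels of Ly6a, Ly6c1, Ly6c2 and Ly6e. Ly6i is lower in cell 1 and pool 3 (11.2 and 17.6 FPKM) than in cell 13 (52.9 FPKM), and Ly6h is high in cells 25 and 26.

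Ly6c1 had the highest mean of the members in the 8 cells led by endothelial markers. Its lowest, median and highest values there were 912 (cell 16), 5908 and 15780 FPKM (cell 2), and in cell 2 it ranked 1st among all genes by FPKM. In the 20 other cells its highest value was 40.2 FPKM, in cell 13, and its median was 0. The mean was 6173 ± 4643 FPKM in endothelial-led cells and 2.76 ± 8.93 FPKM in the others (SD, n = 8 and 20 cells), and the groups did not overlap. The log2 ratio of the means, each with 1 FPKM added, was 10.68, and 11.75 without cell 13.

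Ly6c2 followed Ly6c1 at a lower level, with 230, 1364 and 3386 FPKM as the lowest, median and highest values in endothelial-led cells and at most 4.18 FPKM in the others. The mean was 1370 ± 984 FPKM in endothelial-led cells and 0.484 ± 1.02 FPKM in the others, a log2 ratio of 9.85. The ratio of Ly6c2 to Ly6c1 lay between 0.210 and 0.254 in these 8 cells, while Ly6c1 itself ranged 17.3-fold. It was 0.282 and 0.452 in pools 2 and 3. The part that the shared sequence has in this ratio was not tested.

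Ly6a ranged from 923 FPKM in cell 1 through a median of 3721 to 9506 FPKM in cell 2 among the endothelial-led cells, a 10.3-fold range. The 20 other cells reached 458 FPKM at most, so these groups did not overlap either. The mean was 4040 ± 2772 FPKM in endothelial-led cells and 30.4 ± 106 FPKM in the others, a log2 ratio of 7.01, and of 8.82 without cell 13. Ly6c1 was above Ly6a in 7 of the 8 cells. Cell 16 was the exception, with 3809 FPKM of Ly6a against 912 FPKM of Ly6c1.

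Ly6e had the smallest spread of the 4 members found in endothelial-led cells, with 894 FPKM in cell 17, a median of 1554 FPKM and 2713 FPKM in cell 2, a 3.04-fold range. Its coefficient of variation over the 8 cells was 0.403, against 0.686 for Ly6a, 0.718 for Ly6c2 and 0.752 for Ly6c1. The 12 endothelial markers had values from 0.332 for Cldn5, a tight junction protein, to 1.20 for Cdh5, the VE-cadherin of endothelial junctions, with a median of 0.709. The mean of Ly6e was 1529 ± 616 FPKM in endothelial-led cells and 38.7 ± 91.9 FPKM in the others, a log2 ratio of 5.27 (5.96 without cell 20), and no other cell exceeded 327 FPKM.

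In order of mean level, Ly6c1 and Ly6a differed by less than the larger of their SDs, as did Ly6a and Ly6e, and Ly6e and Ly6c2. These SDs are between cells, while the members share the same cells. Within cells, Ly6c1 was above Ly6a in 7 of 8 endothelial-led cells (not cell 16). Ly6a was above Ly6e in 7 of 8 (not cell 1). Ly6e was above Ly6c2 in 5 of 8 endothelial-led cells and below it in cells 2, 3 and 17. Ly6h was at most 0.510 FPKM in these cells, below every other member in each of them.

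Thus 4 of the 5 members had every endothelial-led cell above every other cell. Of all 18854 genes found in a cell, 0.239% had that property (45 genes). The members were chosen with these values known, so nothing is read from their share. For a log2 ratio of at least 1 the share of all genes was 21.5%, and for one of at most -1 it was 35.3%. Flt1, a VEGF receptor, was at FPKM of at least 1 in the 8 endothelial-led cells and in no other cell. Its highest value in the other cells was 0.344 FPKM. Flt1 is itself among the endothelial markers by which these cells were grouped, so its restriction to them is not a separate observation.

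Markers of blood cells known to make Ly6 proteins were low in the endothelial-led cells. Of 9 measured monocyte and neutrophil markers 1 was found in any of these cells, their sum was 0.0880 to 2.25 FPKM per cell, and S100a8, S100a9, Ngp and Camp were listed at 0 in all 8. Of 8 lymphocyte markers 1 was found, and Cd3e, Cd79a and Ms4a1 were at 0. No fibroblast marker was found. Microglial markers were found at 9 of 12 in cell 3, with a sum of 2124 FPKM, and at no more than 3 in the other 7 cells. Oligodendrocyte markers reached 6 of 10 in cell 6, and 4 erythroid markers were found in cell 17, the most in an endothelial-led cell. The part of these in the Ly6 levels was not tested. Without cell 3 the log2 ratio of endothelial-led over other cells was 6.92 for Ly6a, 10.60 for Ly6c1, 9.78 for Ly6c2 and 5.23 for Ly6e.

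Ly6a was found in 13 cells, or 46.4% (95% Clopper-Pearson interval 27.5% to 66.1%), Ly6c1 also in 13, and Ly6c2 in 12 (42.9%, 24.5% to 62.8%). Beyond the 8 endothelial-led cells, these were cells 4, 9, 11, 13 and 15 for Ly6a and Ly6c1, and cells 4, 9, 11 and 13 for Ly6c2. Intervals cover counting error only. At FPKM of at least 5, Ly6a and Ly6c1 were each in 10 cells and Ly6c2 was in 8. Low values of Ly6c1 ran through cells 1 to 17: all 9 cells of cells 1 to 17 not led by endothelial markers were above 0, at 0.00122% to 0.254% of the highest cell. The same shares were 0% to 4.82% for Ly6a (1.52% in cell 11 and 4.82% in cell 13) and 0% to 0.124% for Ly6c2. The 2% limit was not applied among cells 1 to 17. In all 11 cells of cells 18 to 28, Ly6a, Ly6c1, Ly6c2 and Ly6i were listed at 0. The 12 endothelial markers were above 0 in 5 to 9 of those 9 cells (median 8.5) and in 0 to 11 of the 11 (median 0.5). The source of the low values was not tested.

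Cells 11 and 13, led by astrocyte and by oligodendrocyte markers, stood apart and were singled out after their values were seen. Cell 13 had 458 FPKM of Ly6a, 52.9 of Ly6i, 40.2 of Ly6c1, 4.18 of Ly6c2 and 0.215 of Ly6e. Cell 11 had 144 FPKM of Ly6a, 19.5 of Ly6i, 5.79 of Ly6c1, 1.60 of Ly6c2 and 5.11 of Ly6e. In both, Ly6a and Ly6i were above Ly6c1 and Ly6c2. In the endothelial-led cells Ly6i was below Ly6c1 in all 8 and Ly6a was above Ly6c1 in cell 16 alone.

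The ratio of Ly6a to Ly6c1 was 11.4 in cell 13 and 24.9 in cell 11, against 0.271 (cell 8) to 4.18 (cell 16) in endothelial-led cells. The ratio of Ly6i to Ly6a was 0.116 in cell 13 and 0.135 in cell 11, just above the 0.0121 to 0.104 of the endothelial-led cells. Endothelial markers summed to 1.47 FPKM in cell 13, with 0 of 12 found, and to 2.45 FPKM in cell 11, with 1 of 12 found. In endothelial-led cells the same sum was 4747 to 14521 FPKM. Neither cell had more than 1 of 9 monocyte and neutrophil markers or 1 of 8 lymphocyte markers, and no microglial marker was found in either. Cell 11 had 2 of 10 pericyte and smooth muscle markers, with a sum of 76.8 FPKM.

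**Figure D2:**
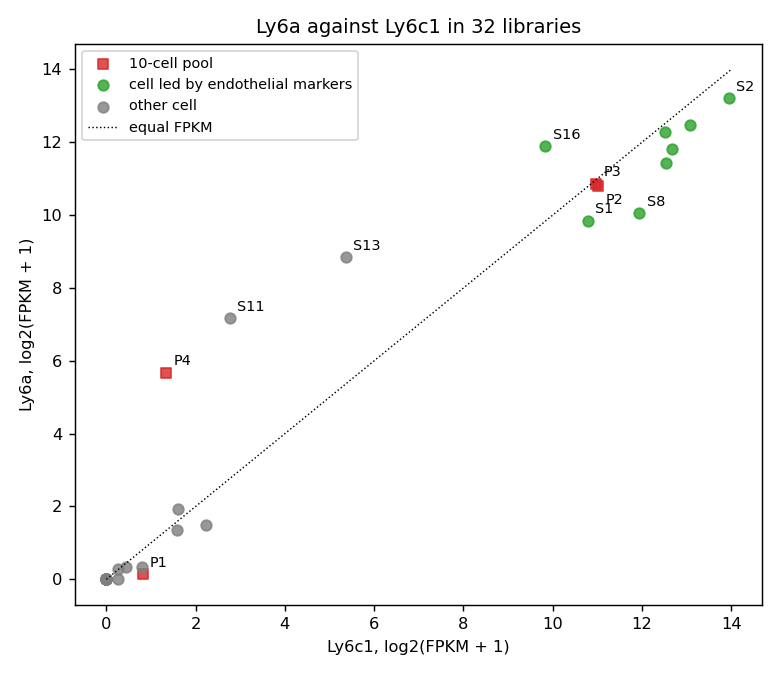
Ly6a (vertical axis) against Ly6c1 (horizontal axis) in the 4 pools and 28 cells, both as log2(FPKM + 1), with a dotted line at equal FPKM. Cells 11 and 13 and pool 4 lie far above the line, with Ly6a at 144, 458 and 50.1 FPKM, and cell 16 is the only endothelial-led cell above it.

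Ly6e reached cells of further kinds. It was found in 15 cells (53.6%, 33.9% to 72.5%) and was above 0 in all 28. Beside the 8 endothelial-led cells it was found in cell 14, led by astrocyte markers, at 238 FPKM, in cell 20, led by microglial markers, at 327 FPKM, and in cell 27, led by neuroblast markers, at 162 FPKM. Cells 18, 19, 11 and 26 had 20.7, 14.3, 5.11 and 2.44 FPKM. Cell 27 also had 3 of 12 microglial markers, with a sum of 3236 FPKM, and endothelial markers summed to 6.38 FPKM in it, 0.986 in cell 20 and 2.45 in cell 14. Cell 20 had 11 of 12 microglial markers and 1 of 9 monocyte and neutrophil markers, at 811 FPKM. Cell 14 had 4 of 12 neuroblast markers (511 FPKM in sum), 1 of 10 pericyte and smooth muscle markers (225 FPKM) and 1 of 7 fibroblast markers (188 FPKM). The part of these in the Ly6e levels was not tested. In cells 18 and 19 Ly6e was at 6.31% and 4.35% of the value in cell 20, and in cell 26 at 1.51% of that in cell 27, so with the 2% limit cell 26 left the count.

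Ly6h was found in a different set of cells. Cell 25 had 1820 FPKM, at which it ranked 68th among all genes, and cell 26 had 152 FPKM. Cells 23, 24, 27 and 28 had 9.38, 14.0004, 9.34 and 13.97 FPKM, which were 0.514% to 0.769% of the value in cell 25, and cell 15, led by ependymal markers, had 2.93 FPKM. Cells 23 to 28 were all led by neuroblast markers and were handled as 1 library set. Ly6h was listed at 0 in cells 18 to 22, among them cell 22, which was also led by neuroblast markers. In all, 7 cells had the gene (25%, 10.7% to 44.9%), and with the 2% limit 3 cells did (cells 15, 25 and 26). Cell 15 is outside the library sets, so the limit was not applied to it. Cell type and library set cannot be told apart for cells 23 to 28. Ly6h averaged 0.106 ± 0.182 FPKM in endothelial-led cells and 101 ± 406 FPKM in the others, a log2 ratio of -6.53 that was -3.40 without cell 25 and -0.48 among cells 1 to 17.

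Cells 25 and 26 had 11 and 10 of 12 neuroblast markers and also 6 of 12 microglial markers each, with microglial sums of 321 and 76.2 FPKM; the part of these in the Ly6h level was not tested. Of 9 mature neuron markers 1 was found in cell 25, with a sum of 19.1 FPKM, and 0 in cell 26, and Rbfox3, Syt1, Slc17a7, Slc17a6 and Nefl were at 0 in both. Of 9 subunits of the nicotinic receptor, whose complexes Ly6h binds, 2 were found in a cell. Chrnb2 had 89.2 FPKM in cell 23 and Chrnb4 had 9.73 FPKM in cell 5. No subunit was found in cell 25 or 26, and Chrna7 was found in no library.

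**Figure D3:**
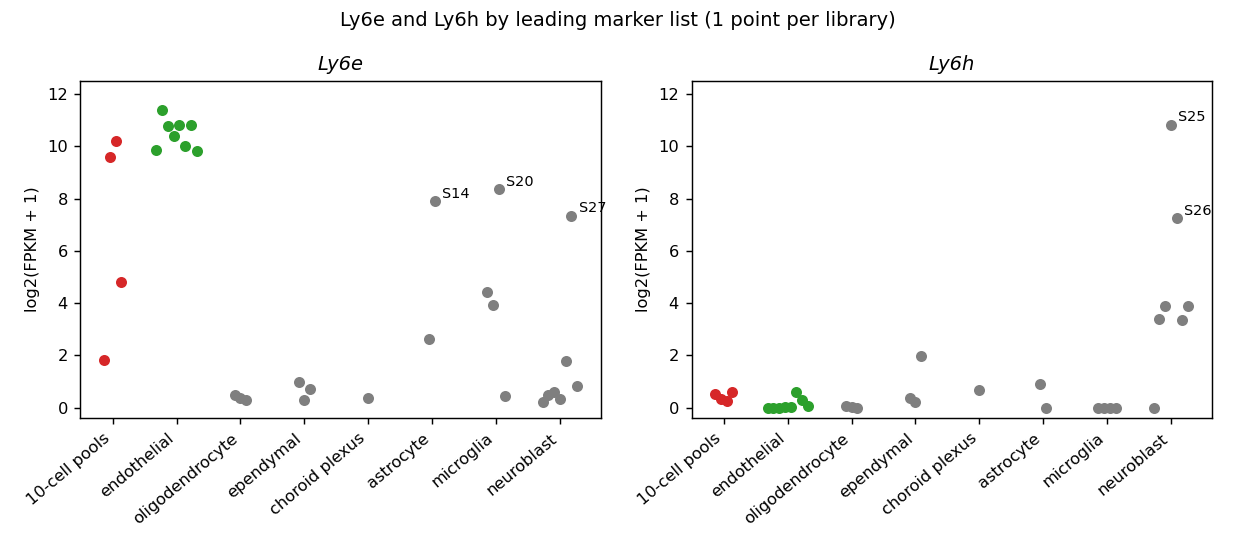
Level of Ly6e (left) and Ly6h (right) as log2(FPKM + 1), 1 point per library, for the 4 pools and for the single cells by the marker list that led them. Ly6e is high in all 8 endothelial-led cells and in cells 14, 20 and 27, and Ly6h is high in cells 25 and 26 and below 1 FPKM in the 4 pools.

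The pools of 10 cells fell into high and low ones. In pools 1 to 4, Ly6c1 had 0.754, 2076, 2019 and 1.53 FPKM, and Ly6c2 had 0.205, 585, 913 and 0.333 FPKM. Ly6a had 0.0986, 1770, 1865 and 50.1 FPKM, and Ly6e had 2.58, 767, 1183 and 26.9 FPKM. Pools 2 and 3 were thus high in all 4 genes. Endothelial markers were found at 12 of 12 in pools 2 and 3, with sums of 4899 and 7641 FPKM, and at 4 of 12 in pools 1 and 4, with sums of 32.4 and 24.7 FPKM. In pool 2 oligodendrocyte markers came close behind, with a mean log2(FPKM + 1) of 7.18 against 7.42 for endothelial markers. Pool 2 also had 12 of 12 microglial markers (1732 FPKM in sum), 8 of 10 pericyte and smooth muscle markers (475 FPKM), 6 of 7 fibroblast markers (58.9 FPKM), 4 of 9 monocyte and neutrophil markers (724 FPKM) and 2 of 8 lymphocyte markers (29.9 FPKM), whose part in its Ly6 levels was not tested. In a pool, fewer cells of a type and less RNA per cell cannot be told apart.

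Pool 4 had Ly6a above Ly6c1, as did cells 11 and 13, with a ratio of 32.7, against 0.852 and 0.924 in pools 2 and 3. It was led by oligodendrocyte markers, with astrocyte markers next. Ly6h was at 0.428, 0.255, 0.200 and 0.517 FPKM and so was found in no pool.

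For 4 members the means of pools and cells differed by less than the spread between pools. Ly6a averaged 921 ± 1036 FPKM in pools and 1176 ± 2324 FPKM in cells (SD, n = 4 pools and 28 cells), a log2 ratio of -0.35, where the SD of the single pools' ratios was 5.10. The ratios of Ly6c1, Ly6c2 and Ly6e were -0.78, -0.064 and 0.091, where those SDs were 5.73, 5.30 and 3.99. Ly6h averaged 0.350 ± 0.148 FPKM in pools and 72.3 ± 344 FPKM in cells, a ratio of -5.76, but without cell 25 it was -2.66, and against cells 1 to 17 alone it was 0.012. Ly6h was the 1 member of 5 with a ratio of at most -1 against all 28 cells. Against cells 1 to 17 alone Ly6a had -1.07, Ly6c1 -1.50, Ly6c2 -0.78 and Ly6e -0.57. By means of log values the ratio over all cells was 2.77 for Ly6a, 2.016 for Ly6c1, 1.79 for Ly6c2 and 2.09 for Ly6e. The direction for Ly6a, Ly6c1 and Ly6c2 thus depended on how values were averaged, while Ly6e was above 0 both ways. Of all 19781 genes found in a library 13.9% had a ratio of at most -1 and 12.9% had one of at least 1.

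Genes whose level over the 28 cells was most like that of a member were taken by Spearman correlation of log2(FPKM + 1) among 10711 genes found in at least 5 cells. These values are descriptions: the cells share libraries and processing, many values are tied at 0, and the endothelial-led cells form a group of their own. Ly6a, Ly6c1 and Ly6c2 were each other's nearest genes, at 0.98. Next for all 3 came Emcn, a sialomucin of endothelial cells, at 0.95 to 0.96, Uaca, which encodes a protein with ankyrin repeats, at 0.95 to 0.97, and 9430020K01Rik, at 0.94 to 0.95. Emcn was found in 6 cells, all led by endothelial markers.

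Ly6e was less closely matched, by Sparc, a secreted matrix-binding protein, at 0.77, She, an adaptor protein, at 0.75, Ephb4, a receptor of venous endothelium, at 0.74, Arhgap29, a GTPase activating protein, at 0.72, and the antisense gene Gm15587 at 0.71. Its correlation with Ly6a, Ly6c1 and Ly6c2 was 0.61, 0.57 and 0.58. The 5 genes nearest to Ly6h were the processed pseudogenes Gm5138, Gm2574, Gm2445, Gm5944 and Gm20899, at 0.85 to 0.90, each highest in cell 26. Ly6h had -0.21 to -0.26 with the other members.

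Interferon-induced genes, a class to which Ly6a and Ly6e belong, were described as a list of 26. Of these, 18 had a log2 ratio of at least 1 between endothelial-led and other cells and 1 had at most -1. Over all genes 21.5% and 35.3% had such ratios. The list median was 2.995 against -0.30 for all genes. Isg15, a ubiquitin-like modifier, averaged 442 ± 617 FPKM in endothelial-led cells and 0.0118 FPKM in the others, and was found in 5 of the 8. Ifitm3, a membrane protein that restricts virus entry, averaged 910 ± 537 FPKM and 11.5 FPKM, a ratio of 6.18. Ifi27 had a ratio of -0.14, which was -1.43 without cell 7 and 0.32 without cell 4. Psmb8, a subunit of the immunoproteasome, had -0.54, but a single other cell, cell 19, had 2266 FPKM: without it the ratio was 5.02, and without cell 6 it was -1.83.

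The number of interferon genes found differed among the endothelial-led cells. Cell 2, highest in Ly6a, Ly6c1, Ly6c2 and Ly6e, had 21 of the 26 found, and cell 6 had 20, with sums of 7407 and 3891 FPKM. Cell 1 had 5 and cell 8 had 3, with sums of 968 and 935 FPKM. In cell 8, Ifitm3 held 911 FPKM of that sum. In cell 8 Ly6c1 was at 3939 FPKM and Ly6e at 1021 FPKM. Cell 13, with its 458 FPKM of Ly6a, had 4 of the 26, with a sum of 16.6 FPKM. Cells 4 and 12, led by oligodendrocyte markers, had 15 and 12 of the 26, with sums of 3119 and 815 FPKM. In cell 4, Ifi27 held 1977 FPKM of that sum. Ly6a was at 1.54 and 0 FPKM in these cells, and Ly6c1 at 2.003 and 0.193 FPKM. The cells named here were picked with their values known, and the part of interferon in the Ly6 levels was not tested. The median Spearman correlation of the 18 interferon genes found in at least 5 cells was 0.52 with Ly6a, 0.53 with Ly6c1, 0.50 with Ly6c2, 0.29 with Ly6e and -0.19 with Ly6h, against medians over all 10710 other genes of 0.19, 0.21, 0.19, -0.063 and 0.12. Of the 4 interferon receptor genes, Ifnar1 and Ifnar2 had ratios of 3.29 and 1.66, Ifngr1 -2.60 and Ifngr2 -0.36 (-1.90 without cell 3).

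Genes that make and attach the GPI anchor had ratios in both directions. Of 24 measured ones, 23 were found in a cell, of which 6 had a log2 ratio of at least 1 and 9 of at most -1, with a median of -0.32. Over all genes 21.5% and 35.3% had such ratios and the median was -0.30, so the list lay near the background. Dpm1, which makes the mannose donor of the anchor, had -5.60, Pigs and Pigu, subunits of the transamidase that attaches it, had -5.89 and -4.12, and Pigp had -0.59 (-4.20 without cell 7 and 0.44 without cell 22). Pools over cells gave 4 genes of at least 1 and none of at most -1, beside 12.9% and 13.9% of all genes. The list median was 0.45 against 0.064 for all genes.

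Most other genes of the Ly6/uPAR family were below 1 FPKM. Of 29 measured ones, 20 were found in no cell. These include Ly6d, Ly6f, Ly6g, Ly6k, Psca and Gpihbp1, the lipoprotein lipase anchor of capillaries in other organs. Since a 0 in such a table can be a failed estimate, no limit on the share of cells is given for them. Of the 9 others, 3 had a log2 ratio of endothelial-led over other cells of at least 1 (Ly6i 6.27, Cd59a 3.02 and Cd59b 1.85) and 3 of at most -1, among them Lynx1 at -2.59, with a median of -0.19, beside the same 21.5%, 35.3% and -0.30 over all genes. Ly6i was found in 10 cells (35.7%, 18.6% to 55.9%), the 8 endothelial-led cells and cells 11 and 13. It ranged there from 11.2 FPKM in cell 1 to 863 FPKM in cell 2. Cd59a, a complement inhibitor, averaged 211 ± 270 FPKM in endothelial-led cells and 25.005 FPKM in the others, where cell 5 had 336 FPKM, and its near copy Cd59b averaged 19.2 and 4.60 FPKM. Lynx1, a regulator of nicotinic receptors, was found in 2 cells, neither of them endothelial-led, and was highest in cell 11 at 56.1 FPKM.

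**Figure D4:**
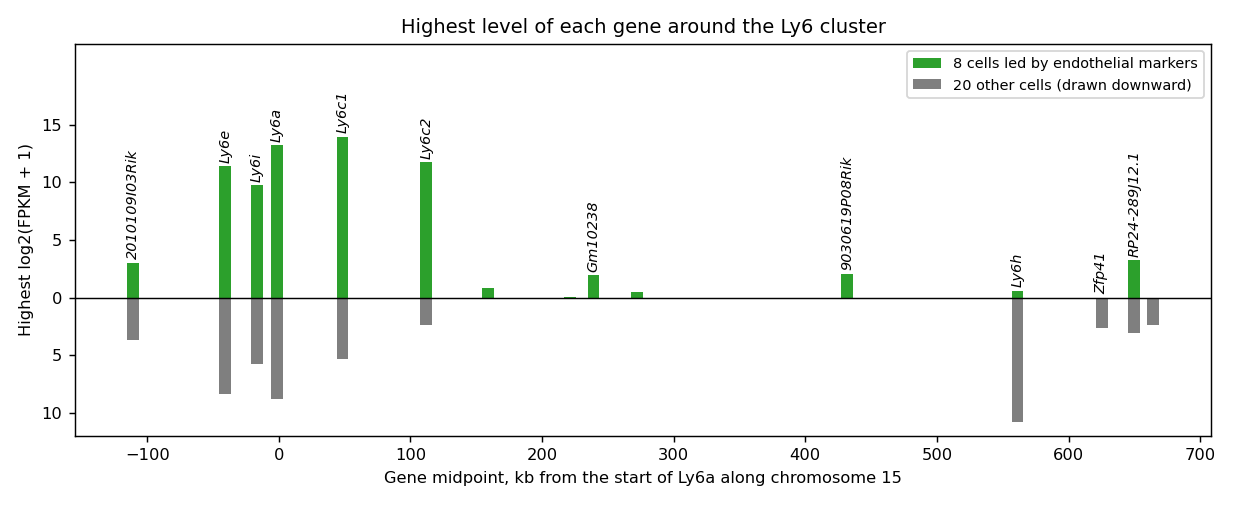
Highest level of each of 17 genes in the window around the Ly6 cluster of chromosome 15, as log2(FPKM + 1), in the 8 endothelial-led cells (bars upward) and in the 20 other cells (bars drawn downward), against the distance in kb from the start of Ly6a. Ly6e, Ly6i, Ly6a, Ly6c1 and Ly6c2 lie next to each other and are high upward, and Ly6h, at 561 kb, is high downward. Ly6a and Ly6e also have tall downward bars, from 458 FPKM in cell 13 and 327 FPKM in cell 20. Ly6i, Ly6c1 and Ly6c2 have lower ones, of at most 52.9 FPKM.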

How the data were processed

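The authors deposited 1 table of FPKM per gene for 28 cells and 4 pools. Per the submitters' processing notes it was made with TopHat 1.41 and Cufflinks 2.02 on build mm9. However, 96% of its 39011 lines carry a GENCODE M21 gene ID, with loci that in 99.7% of cases overlap that gene on GRCm38, and GRCm38 positions are given. Lines of 1 symbol were summed. A 0 may stand for a failed estimate, since mt-Co1 has 0 in each of the 32 libraries. No 2 libraries were identical.

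The members, marker lists, gene lists, library sets and the 2% limit were chosen with earlier results of these data known. Named genes were the members, the 5 genes most like each, and the 4 members of each list with the highest mean FPKM. Ly6d, Ly6f, Ly6g, Ly6k, Psca, Gpihbp1, Chrna7 and the single marker genes named fall outside that rule and were chosen after their values were seen. Ratios are log2 of mean FPKM + 1, and a ratio of 1 in size counts as called; this scale understates changes of low genes. No doublet caller was run and no cell was removed. Depth was estimated from 6832 single-exon genes with 1 transcript, 800 bases or longer, with an assumed fragment length of 200, and is approximate; elsewhere it is unknown. Computations used Python 3.11.15, pandas 2.3.3, numpy 2.4.6 and scipy 1.17.1 and were tested on simulated data. Alternatives were other thresholds, pseudocounts and scalings, the library sets, and leaving out each library.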

Additional observations from a re-analysis of the deposited data

How the results depend on the processing

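No paired analysis was possible because no result comes from a test and the shared library numbers of cells and pools pair nothing. For cells led by endothelial markers over other cells, Ly6a, Ly6c1, Ly6c2 and Ly6e kept log2 ratios above 1 under every alternative run. All 8 endothelial-led cells are among cells 1 to 17. Within cells 1 to 17 the ratios were 5.88 for Ly6a, 9.76 for Ly6c1, 9.37 for Ly6c2 and 5.76 for Ly6e. By means of log values Ly6a had 10.54 and Ly6e 8.34. With a pseudocount of 10 Ly6c1 had 8.92 and Ly6c2 7.04, and with 0.1 Ly6c2 had 11.20. With 1 cell left out the ratio ranged from 6.70 to 8.82 for Ly6a (highest without cell 13), from 10.32 to 11.75 for Ly6c1, from 9.51 to 10.05 for Ly6c2, from 5.10 to 5.96 for Ly6e (highest without cell 20) and from -6.61 to -3.40 for Ly6h (highest without cell 25). For the same comparison Ly6h had -8.94 and -3.46 with pseudocounts of 0.1 and 10, -1.71 by log values, -6.16 after rescaling to one sum and -0.48 among cells 1 to 17.

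The pools over cells ratio of Ly6h reversed to 0.012 against cells 1 to 17. It was -7.33 and -2.99 with pseudocounts of 0.1 and 10, -0.93 by log values, -5.30 after rescaling and -7.24 under upper quartile scaling, and -5.82 to -2.66 with 1 library left out. Leaving out 1 cell or pool gave -0.95 to 0.087 for Ly6a, -1.39 (without pool 2) to -0.28 for Ly6c1, -1.002 (without pool 3) to 0.41 for Ly6c2 and -0.80 to 0.50 for Ly6e, so the sign for Ly6a, Ly6c2 and Ly6e depended on single libraries. By means of log values these ratios were 2.77, 2.016, 1.79 and 2.09 for Ly6a, Ly6c1, Ly6c2 and Ly6e, and against cells 1 to 17 they were -1.07, -1.50, -0.78 and -0.57, so the sign for Ly6c1 was not stable either. Rescaling to one sum shifted the median of all genes from 0.064 to 0.24 here.

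At FPKM of at least 0.1 Ly6e was found in 28 cells and Ly6h in 13. Ly6h was found in 3 cells under limits of 2% and 5%, and in 1 of cells 1 to 17, to which these limits were not applied. Of the 5 most alike genes, cells 1 to 17 alone gave 3 again for Ly6a, Ly6c1 and Ly6c2 and 1 for Ly6e, and Pearson correlation gave 2, 2, 1, 0 and 0 for Ly6a, Ly6c1, Ly6c2, Ly6e and Ly6h, so the named neighbours depend on the measure. The interferon list had a median of 2.07 among cells 1 to 17, and the GPI list -0.91 there, against -0.25 for all genes. With 1 cell left out, chosen after seeing the data, Ifi27, Psmb8, Ifngr2, Pigp and Chrnb2 changed their side of a log2 ratio of 1 in size among the named list genes. The cause of these shifts was not tested. Depth limits the reading of values under 1 FPKM.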

Other observations

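The genes between and around the members were looked at by position. The window from 100 kb before Ly6e to 100 kb after Ly6h held 17 genes of the table, of which 12 were found in a cell. The pseudogene 9030619P08Rik was found in 6 cells, all led by endothelial markers, at up to 3.18 FPKM, and in pool 2 at 4.01 FPKM; its highest value in the 20 other cells was 0.107 FPKM, in cell 13. It was the gene most like Ly6i over the 28 cells, with a Spearman correlation of 0.94. The pseudogene Gm10238 was found in 2 cells, both endothelial-led, and in pool 2 at 1.92 FPKM. 2010109I03Rik was found in 3 cells, of which 1 was endothelial-led, with its highest value of 11.9 FPKM in cell 24.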
